A study of Mus musculus with 6 samples.

Results

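The lecticans and the hyaluronan link proteins are 2 small gene families whose products assemble into the large proteoglycan aggregates of cartilage and brain. All 8 genes, the lecticans *Acan*, *Vcan*, *Ncan* and *Bcan* and the link proteins *Hapln1*, *Hapln2*, *Hapln3* and *Hapln4*, were taken by symbol from the 22032 genes of the mouse table, and each was found under 1 identifier. Their Ensembl identifiers are ENSMUSG00000030607 (*Acan*), ENSMUSG00000021614 (*Vcan*), ENSMUSG00000002341 (*Ncan*), ENSMUSG00000004892 (*Bcan*), ENSMUSG00000021613 (*Hapln1*), ENSMUSG00000004894 (*Hapln2*), ENSMUSG00000030606 (*Hapln3*) and ENSMUSG00000007594 (*Hapln4*). A lectican binds hyaluronan, a very long sugar polymer, through its N-terminal globular domain. A link protein binds the same polymer and the same lectican domain, and so holds the complex together. The middle of the core protein carries chondroitin sulfate chains, which draw water into the tissue. Aggrecan, encoded by *Acan*, with the cartilage link protein encoded by *Hapln1*, makes the aggregate that lets cartilage bear load. Versican, encoded by *Vcan*, is known from loose and developing connective tissue, and neurocan (*Ncan*) and brevican (*Bcan*) from brain.

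RNA-seq was measured in 3 embryonic and 3 adult samples of mouse cartilage. The embryonic cells came from a stage that the labels give as 16.5 wks and the methods as embryonic day 16.5, which is used here, and the adult cells from animals of 2 months, male B6 mice by the methods. In both stages the cells were sorted without alkaline phosphatase (ALP), without the blood and endothelial lineage antigens, and with BMPR1B, a bone morphogenetic protein receptor of the cell surface. The sex and strain of the embryos and the number of animals in a sample are not given in the sources used here, so p-values measure the spread between these samples.

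Levels are in TPM, a unit that corrects for transcript length and adds up to 1000000 in each sample, so that genes can be compared with each other. TPM keeps no sequencing depth, so the error of a value is the SD of log2(TPM + 1) over 3 samples. The stage difference was estimated by limma for the 13125 genes whose mean reached 1 TPM, and a gene was called at a Benjamini-Hochberg adjusted p under 0.05. Of the 8 genes, 4 reached that mean (*Acan*, *Vcan*, *Bcan* and *Hapln1*), and the other 4 stayed below it. Of the 4 tested, 0 were higher and 2 lower in adults, *Vcan* and *Hapln1*, where 45.3% of all tested genes were called and 21.4% were lower. At an unadjusted p under 0.05 from limma 1 gene, *Acan*, was higher.

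Before these values, the identity of the cells was read from marker lists. Of 10 chondrocyte markers, 8 were lower and 1 higher in adults, and their summed level was 27907 to 29333 TPM in embryos and 6472 to 10159 TPM in adults. *Matn3*, encoding matrilin-3, was at 181 to 234 TPM in embryos and 1.11 to 3.65 TPM in adults. *Col2a1*, encoding type II collagen, was at 14154.5 to 15251 TPM in embryos and 3166 to 7084 TPM in adults. Its log2 difference was -1.73 (limma adjusted p = 0.00107). Of 7 tendon and fibroblast markers 5 were lower and 1 higher, with sums of 10280 to 11905 TPM and 901 to 1710 TPM. The leukocyte list summed to 5.31 to 13.7 TPM in the embryonic and 19.0 to 66.5 TPM in the adult samples. Of that list, *Cd68* was higher in adults, at 4.22 to 12.6 TPM and 17.2 to 33.3 TPM (limma adjusted p = 0.00967). *Lyz2* was at 0 to 1.08 TPM and 0.706 to 30.7 TPM and was not called, *Csf1r* was at most at 1.54 TPM, and *Cd3e* was at 0 throughout. The neural and glial list summed to 2.78 to 19.8 TPM and 4.50 to 11.0 TPM. Of 7 osteoblast markers, 2 were higher in adults (*Ibsp* and *Bglap*), 2 lower (*Col1a1* and *Dmp1*) and 3 not called (*Runx2*, *Sp7* and *Phex*). Their sums, which include *Col1a1*, were 4940 to 6018 TPM and 529 to 1062 TPM. *Dmp1* was at 10.1 to 16.3 TPM and 0.0611 to 3.51 TPM (limma adjusted p = 0.00495). The muscle list summed to 1.14 to 16.1 TPM in embryos and 0.870 to 7.72 TPM in adults. Erythroid sums were 0 to 104 TPM and 1.41 to 33.8 TPM. Endothelial sums were 10.6 to 23.0 TPM and 3.79 to 10.8 TPM. Of the 2 endothelial markers tested, *Tek* was lower in adults, at 9.21 to 19.0 TPM and 0.121 to 0.889 TPM (limma adjusted p = 0.000976), and *Pecam1* was not called. Among the genes of the gate, *Bmpr1b* was at 16.4 to 20.3 TPM and 4.51 to 18.5 TPM, *Alpl* at 14.4 to 17.9 TPM and 32.7 to 38.6 TPM, *Pecam1* at 1.29 to 1.75 TPM and 2.79 to 6.87 TPM, and *Ptprc* at 0 to 0.0613 TPM and 0 to 2.29 TPM. In RNA from pooled cells, fewer cells of a type and less RNA per cell cannot be told apart.

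The 8 genes lie in 4 pairs, each of a lectican and a link protein, with no other annotated gene between them (GRCm38, GENCODE M21). *Acan* lies at chr7:79053483-79115099 on the plus strand and *Hapln3* at chr7:79115102-79131018 on the minus strand, with 2 bases between their 3′ ends. *Hapln1* lies at chr13:89539796-89611652 on the plus strand and *Vcan* at chr13:89655312-89742509 on the minus strand, 43659 bases apart and also end to end. *Hapln4* at chr8:70083457-70090862 (plus) and *Ncan* at chr8:70093085-70120873 (minus) are separated by 2222 bases. *Bcan* at chr3:87987531-88000230 and *Hapln2* at chr3:88021750-88027583 both lie on the minus strand, 21519 bases apart. The chromosomal partners are not the partners of the cartilage aggregate, since *Acan* neighbours *Hapln3* and *Hapln1* neighbours *Vcan*.

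Although the families share protein domains, their transcripts could be told apart at the read length of 50 bases. None of the distinct 50-base stretches of *Acan*, *Vcan*, *Bcan*, *Hapln2*, *Hapln3* or *Hapln4* transcripts occurred in a transcript of another gene. For *Hapln1* 0.308% of them did, and for *Ncan* 0.644%. Reads without strand information at the abutting ends of *Acan* and *Hapln3* could be counted for either gene, and their part in the *Hapln3* value was not tested.

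The start regions of *Acan* and *Vcan*, the most abundant lecticans of both stages by mean level, are shown as the 250 bases before the RefSeq start of each gene (GRCm38.p6). The capitals mark matches to the GC box GGGCGG and the CCAAT box CCAAT on either strand. The first lies at chr7:79052976-79053225 (plus strand) within the span of the antisense gene *Gm26633* but in none of its exons, and the second at chr13:89742513-89742762 (minus strand) within the span of *Gm4117*, again outside its exons.
Acan: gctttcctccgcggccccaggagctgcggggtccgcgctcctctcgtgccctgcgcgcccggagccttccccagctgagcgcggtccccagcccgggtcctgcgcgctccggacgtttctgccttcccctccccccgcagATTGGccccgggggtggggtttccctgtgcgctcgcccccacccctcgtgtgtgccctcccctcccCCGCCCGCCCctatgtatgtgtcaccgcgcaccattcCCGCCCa
Vcan: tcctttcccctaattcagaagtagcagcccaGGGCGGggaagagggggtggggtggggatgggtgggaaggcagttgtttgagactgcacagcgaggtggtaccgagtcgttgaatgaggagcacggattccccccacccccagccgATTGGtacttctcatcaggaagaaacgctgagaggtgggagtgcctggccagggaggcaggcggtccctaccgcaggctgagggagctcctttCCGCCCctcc
The *Acan* window held 3 GC box matches, of which 2 overlap each other, and 1 CCAAT match, and the *Vcan* window 2 and 1. Of 32851 start windows of this length in the RefSeq table, 32.7% held a GC box match and 33.8% a CCAAT match. The SOX core ACAAT, present in 27.7% of all windows, and the TATA box TATAAA, present in 12.4%, were not found in these 2 windows. The GC content was 74.4% for *Acan* and 62.4% for *Vcan*, against a median of 52.4%, and the windows held 26 and 10 CG dinucleotides, against a median of 6. The corresponding window of *Hapln1*, not printed because it lies in an annotated exon of the gene, held 1 ACAAT match, 0 matches to the other 3 motifs, a GC content of 54.4% and 2 CG dinucleotides. These matches describe the letters of the windows, and binding was not measured.

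Aggrecan was the most abundant transcript of the 8 in every sample. *Acan* was at 1306, 1018 and 1247 TPM in embryos and 1265, 2672 and 1756 TPM in adults. Only adult replicate 1 lay within the embryonic range, and the other adult samples lay above it. In the order of all 22032 genes, *Acan* stood at places 97, 135 and 102 in embryos and 81, 27 and 44 in adults. The mean log2(TPM + 1) was 10.21 ± 0.19 (SD, n = 3) and 10.82 ± 0.54 (SD, n = 3), a difference of 0.61 with a 95% interval of 0.05 to 1.17. With an adjusted p of 0.0717 from limma (0.0102 to 0.313 over the alternatives) this missed the threshold. It passed without adult replicate 1, with a difference of 0.87, and the difference was 0.33 without adult replicate 2. It also passed under quantile normalization (adjusted p = 0.0205) and when the 20 highest genes were left out of the scaling (adjusted p = 0.0431).

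Versican RNA was lower in the adult cells. *Vcan* was at 165, 121 and 165 TPM in embryos and 17.4, 39.5 and 40.6 TPM in adults. All adult values lay below all embryonic values, as they did for 25.9% of all tested genes. In 30.7% the adult values lay above, so that the stages were apart in 56.5%. On the log2(TPM + 1) scale *Vcan* fell by 2.25 (from 7.22 ± 0.26 to 4.97 ± 0.67, SD, n = 3), which is 4.76-fold lower on that scale (standard error 0.310, limma adjusted p = 0.000549). Its place among all genes lay between 1153 and 1611 in embryos and between 4555 and 7149 in adults. Of the 7 tendon and fibroblast markers, *Tnmd*, *Scx*, *Col1a1*, *Col3a1* and *Dpt* were lower in adults too, *Thbs4* was higher (log2 difference 0.61, limma adjusted p = 0.0467) and *Pdgfra* was not called (-0.33). Adult replicate 1 had the lowest *Vcan*, *Col1a1*, *Col3a1* and *Tnmd* of all samples, whereas *Dpt* and *Pdgfra* were lowest in adult replicate 2. Without adult replicate 1 *Vcan* fell by 1.86 with an adjusted p of 0.00027. The part of tendon or fibroblast cells in the *Vcan* result was not tested.

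Of the remaining lecticans, known from brain, *Ncan* was near the floor and *Bcan* varied widely between samples. *Ncan* was at 0.606, 0.534 and 0.377 TPM in embryos and 0, 0.0279 and 0.0257 TPM in adults. All embryonic values lay above the adult ones, but the mean was under 1 TPM and the gene was not tested with the others. With no filter on low values its difference was -0.56 with an adjusted p of 0.00645 by limma. *Bcan* was at 9.03, 0.785 and 0 TPM in embryos and 0.638, 5.35 and 22.2 TPM in adults. The stages overlapped, and the difference of 1.25 (95% interval -1.19 to 3.70) missed the threshold (adjusted p = 0.369, limma). It rested on single samples, being 0.30 without adult replicate 3, 0.56 without embryonic replicate 3, 2.22 without embryonic replicate 1 and 2.21 without adult replicate 1, and it was 2.27 with a pseudocount of 0.1. Embryonic replicate 1, the highest of its stage for *Bcan*, was also the highest of its stage for *Mbp* (16.5 TPM), *Hbb-bs* (72.0 TPM) and *Myod1* (8.57 TPM). Adult replicate 3, the highest of all for *Bcan*, had *Mbp* at 0.700 TPM, *Sox10* at 2.83 TPM and *Tubb3* at 5.44 TPM. The neural markers *Gfap*, *Snap25*, *Syt1* and *Olig2* were at most at 0.458 TPM in any sample.

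The cartilage link protein gene fell by a small and even amount. *Hapln1* was at 541, 604 and 579 TPM in embryos and 345, 347 and 355 TPM in adults. The adult samples lay close together and below all embryonic samples. The mean log2(TPM + 1) went from 9.17 ± 0.08 (SD, n = 3) to 8.45 ± 0.02 (SD, n = 3), a difference of -0.72 with a standard error of 0.108 (limma adjusted p = 0.000882). That is 1.64-fold lower on this scale. Its place among all genes lay between 244 and 270 in embryos and between 393 and 406 in adults. Under the other scalings the difference was -0.86 to -0.55, and it remained past the threshold in each of them.

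The other link proteins were hardly present. *Hapln3*, known from blood vessels, was at 1.87, 0.810 and 0.439 TPM in embryos and 0.839, 0.870 and 0.530 TPM in adults, and the stages overlapped. *Hapln2*, a brain link protein, was listed at 0 in 4 samples and at 0.403 and 0.137 TPM in embryonic replicate 3 and adult replicate 2. *Hapln4*, likewise known from brain, was at 0 to 0.405 TPM in embryos and 0, 0.0488 and 1.51 TPM in adults. With no filter, none of the 3 passed the threshold (limma adjusted p = 0.868, 0.842 and 0.827 in the order named here).

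**Figure D1:**
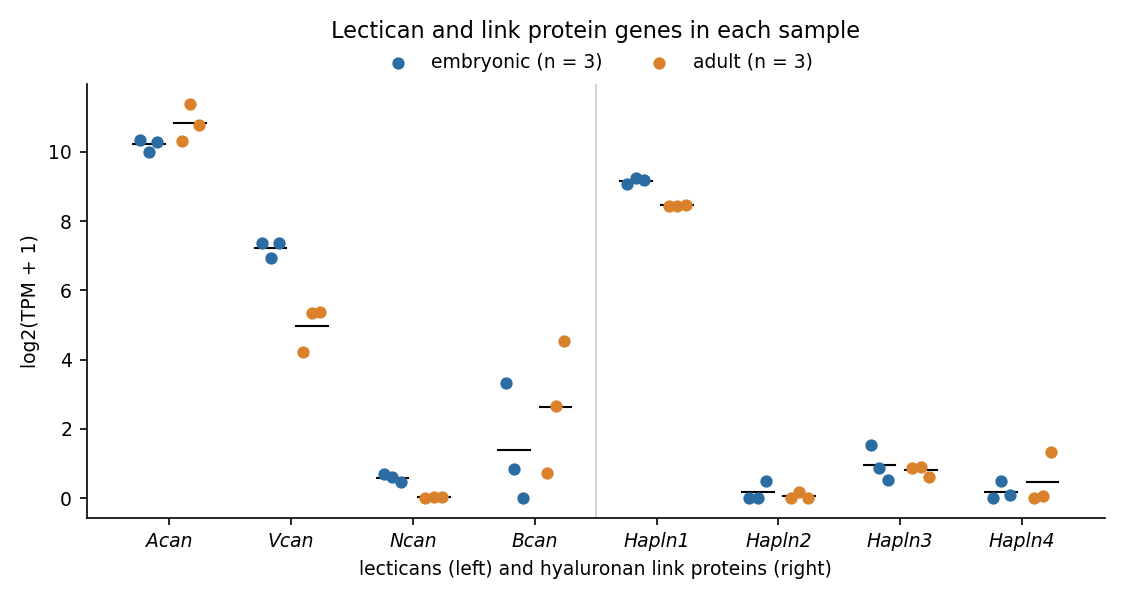
Levels of the 8 genes as log2(TPM + 1) on the vertical axis, with 1 point for each of 3 embryonic (blue) and 3 adult (orange) samples and a black line at the mean of each stage. *Acan* is highest in every sample, *Vcan* and *Hapln1* separate by stage, and the other 5 genes lie near 0 except for single *Bcan* samples of 5.35 to 22.2 TPM.

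In the embryonic samples the order of levels was *Acan*, *Hapln1* and *Vcan*, and the ranges of these 3 did not overlap. The other 5 genes followed. Among them *Hapln3* (0.439 to 1.87 TPM) lay above *Hapln2* and *Hapln4* without overlap, and the remaining neighbours overlapped. In the adult samples the order of the first 3 was the same, but the range of *Bcan* (0.638 to 22.2 TPM) reached that of *Vcan* (17.4 to 40.6 TPM). The order of the other 5 changed, with *Ncan* lowest by mean level in adults. The rank of *Hapln1* above *Vcan* was the same in all 6 samples.

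Ratios within a sample do not depend on how the samples were scaled to each other, and they were used to follow the makeup of the families. *Acan* made up 88.2%, 89.3% and 88.3% of lectican TPM in embryos and 98.6%, 98.3% and 96.5% in adults. The difference of 9.22 percentage points had an exact two-sided permutation p of 0.1, the smallest that 3 samples against 3 can give. *Vcan* was at 12.6, 11.8 and 13.2 TPM per 100 TPM of *Acan* in the embryonic and at 1.38, 1.48 and 2.31 in the adult samples. *Hapln1* held 99.7%, 99.8% and 99.8% of link protein TPM in embryos and 99.8%, 99.7% and 99.4% in adults (difference -0.14 percentage points, exact permutation p = 0.3). The lectican RNA of the adult cells was thus nearly all *Acan*, and the link protein RNA of both stages nearly all *Hapln1*.

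Link protein RNA relative to lectican RNA was lower in each adult sample than in any embryonic one. *Hapln1* stood at 41.4, 59.3 and 46.4 TPM per 100 TPM of *Acan* in embryos and at 27.3, 12.97 and 20.2 in adults. The log2 ratio of *Hapln1* to *Acan* was -1.04 ± 0.26 (SD, n = 3) and -2.38 ± 0.54 (SD, n = 3), a difference of -1.33. The log2 ratio of all link protein to all lectican TPM was -1.21 ± 0.27 and -2.40 ± 0.54 (SD, n = 3), a difference of -1.19. In each case the exact two-sided permutation p was 0.1, the smallest possible. Over the 4 shares and ratios tested, the Benjamini-Hochberg adjusted value of each exact p of 0.1 was 0.133. Summed link protein TPM was 543, 605 and 580 in the embryonic and 346, 348 and 357 in the adult samples, while summed lectican TPM was 1481, 1140 and 1412, and then 1283, 2717 and 1819. Of the 2 sums, the first separated the stages and the second overlapped.

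**Figure D2:**
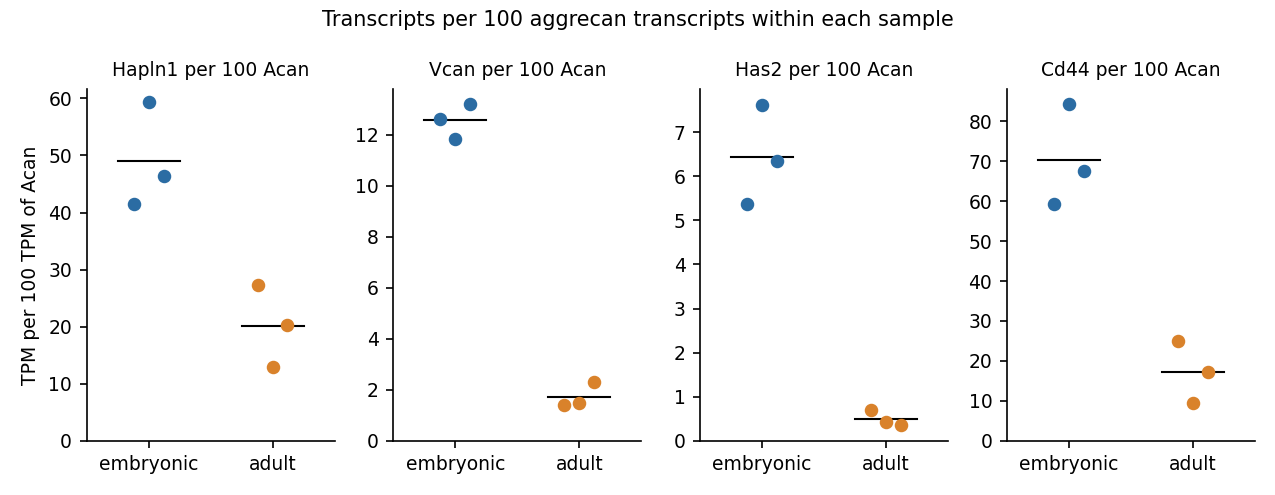
TPM of *Hapln1*, *Vcan*, *Has2* and *Cd44* per 100 TPM of *Acan* within each sample on the vertical axes, which start at 0 and differ in scale, for 3 embryonic (blue) and 3 adult (orange) samples with a black line at the mean. In all 4 panels the adult ratios lie below the embryonic ones, for *Hapln1* 12.97 to 27.3 against 41.4 to 59.3.

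The change of *Acan* was also set beside that of type II collagen, a ratio chosen after the values were known. *Acan* stood at 8.91, 7.19 and 8.18 TPM per 100 TPM of *Col2a1* in embryos and at 17.9, 84.4 and 45.4 in adults. For *Hapln1* these ratios were 3.69, 4.27 and 3.79, and then 4.87, 11.0 and 9.17. Both genes were therefore higher relative to *Col2a1* in each adult sample, though *Hapln1* fell in TPM. *Col2a1* itself was lower in adults (log2 difference -1.73, limma adjusted p = 0.00107).

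The genes around the aggregate were read from lists of hyaluronan synthesis, hyaluronan binding, hyaluronan breakdown, lectican proteases, lectican ligands, chondroitin sulfate assembly and the SOX factors. Of 66 genes 59 were tested, and 20 were higher and 25 lower in adults. These 45 are 76.3% of those tested, against the 45.3% of all genes, of which 23.9% were higher and 21.4% lower. The lists were chosen with earlier results of these data known, so comparisons of them with all genes are a description only. Whether these lists changed more than other genes was not tested.

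Hyaluronan is the polymer on which the aggregates are strung. Of 3 tested genes of hyaluronan synthesis, 0 were higher and 2 lower, with a median difference of -0.64 against 0.16 over all tested genes. *Has2*, the main hyaluronan synthase of developing cartilage, was at 70.3, 77.6 and 79.2 TPM and then at 8.93, 11.2 and 6.34 TPM (log2 difference -2.99, limma adjusted p = 3.19e-05). Relative to *Acan*, it went from 5.38 to 7.62 per 100 TPM to 0.361 to 0.706. *Ugdh*, which makes the UDP-glucuronate used for hyaluronan and chondroitin sulfate, fell by 0.64 (limma adjusted p = 0.00402). *Has1* was at 33.5 to 55.7 TPM and 23.6 to 51.7 TPM, with overlapping stages.

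Among 7 tested genes of hyaluronan binding, 2 were higher and 4 lower, with a median of -1.51. *Cd44*, the main hyaluronan receptor of chondrocytes, was at 773, 859 and 844 TPM and then at 317, 253 and 304 TPM (log2 difference -1.51, limma adjusted p = 3.82e-05). *Tnfaip6*, whose product TSG-6 moves heavy chains onto hyaluronan, was at 313, 468 and 316 TPM and then at 1.20, 11.5 and 8.32 TPM, and so fell by 5.83 on the log2 scale. *Ptx3*, a pentraxin that binds TSG-6, fell by 5.14, and *Hmmr*, which is also a spindle protein of dividing cells, by 2.46. In the other direction, *Layn*, encoding the hyaluronan receptor layilin, was at 14.9, 18.2 and 20.02 TPM and then at 273, 301 and 279 TPM (log2 difference 3.94, limma adjusted p = 8.25e-07). *Itih2*, encoding an inter-alpha-inhibitor heavy chain, rose by 2.71. With limma adjusted p between 1.12e-05 and 0.00168, *Tnfaip6*, *Ptx3*, *Hmmr* and *Itih2* all had stage ranges apart.

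All 7 genes of hyaluronan breakdown were tested, and 4 were higher and 1 lower, with a median of 0.91. *Cemip*, needed for the depolymerization of hyaluronan, rose from 2.17, 1.83 and 3.29 TPM to 48.7, 111 and 112 TPM (log2 difference 4.67, limma adjusted p = 3.01e-05). *Hyal2*, a hyaluronidase of the cell surface, rose by 1.28. *Cemip2*, a cell surface relative of *Cemip*, fell by 0.63. The call of *Cemip2* was lost with no filter on low values (limma adjusted p = 0.0602) and with eBayes without trend (0.0538). It was also lost when either of 2 embryonic samples was left out. Its adjusted p was 0.0524 without embryonic replicate 1 and 0.0779 without embryonic replicate 3.

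Genes of lectican proteolysis moved in both directions. Of the 10 tested, which are enzymes that cut lecticans and the inhibitor gene *Timp3*, 5 were higher, *Timp3* among them, and 5 lower, with a median of -0.40. *Adamts5* and *Adamts4* encode the aggrecanases best known from cartilage. *Adamts5* was at 15.8, 9.94 and 20.6 TPM in embryos and 124, 40.0 and 109 TPM in adults, a rise of 2.39 (limma adjusted p = 0.00227). *Adamts4* went the other way, from 13.4, 10.1 and 10.7 TPM to 1.13, 0.919 and 3.75 TPM, and so fell by 2.20 on the log2 scale (limma adjusted p = 0.00464). *Adamts1* and *Adamts9*, whose products also cleave versican, fell by 2.38 and 3.16. *Adamts8* and *Adamts15* were low in the embryonic samples (1.97 to 4.44 TPM and 2.24 to 4.91 TPM) and at 0 to 0.258 TPM and at 0 in the adult samples. Of the matrix metalloproteinases, *Mmp3* was at 7.58 to 13.2 TPM and then at 4182 to 7697 TPM, and *Mmp13* at 4.90 to 14.4 TPM and then at 143 to 226 TPM. *Timp3*, encoding an inhibitor of the aggrecanases, rose from 104, 90.5 and 91.7 TPM to 1392, 1387 and 1289 TPM (log2 difference 3.82, limma adjusted p = 1.41e-07).

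A further list held 6 genes of the tenascin, fibulin and fibrillin families. Some members of these families bind the lectin domain at the C-terminal end of the lecticans. All 5 tested genes of this list were lower in adults, with a median of -3.36. *Tnr*, encoding tenascin-R, was too low to be tested, at 0, 0.0314 and 0 TPM in embryos and 0.135, 0.604 and 0.577 TPM in adults. *Fbln1*, encoding fibulin-1, was at 177, 198 and 190 TPM and then at 6.05, 5.29 and 10.001 TPM (log2 difference -4.59, limma adjusted p = 2.45e-06). *Tnc*, encoding tenascin-C, was at 596, 575 and 522 TPM and then at 7.66, 43.8 and 50.7 TPM, and so fell by 4.38 on the log2 scale. *Fbln2* fell by 3.36, with adult replicate 3 at 49.1 TPM above the other adult samples. The call of *Tnn*, whose stages overlapped, was lost with no filter on low values (limma adjusted p = 0.155), with eBayes without trend (0.0561), and without embryonic replicate 1 (0.123), embryonic replicate 3 (0.122), adult replicate 1 (0.0907) or adult replicate 3 (0.0610). The tendon and fibroblast sums given above were lower in the same samples, and their part in these falls was not tested.

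The chondroitin sulfate chains of the lecticans are built by a common set of enzymes, and these moved in both directions. Of 24 tested, 7 were higher, 7 lower and 10 not called, and the median was 0.35. *Chst12*, a chondroitin 4-sulfotransferase, was at 2.36, 3.92 and 3.06 TPM and then at 157, 203 and 98.2 TPM (log2 difference 5.18, limma adjusted p = 5.69e-06). *Csgalnact2*, which starts the chondroitin chain, rose by 2.18, and *B4galt7*, which builds its linker, by 2.08. *Chsy1*, a chain-extending synthase, was at 141, 136 and 156 TPM and then at 36.9, 36.3 and 46.8 TPM (log2 difference -1.84, limma adjusted p = 4.41e-05). *Chst15* and *Ust*, sulfotransferases, fell by 1.34 and 1.27. *Bpnt2*, listed in the annotation as *Impad1*, was among those not called.

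SOX9, SOX5 and SOX6 are the transcription factors known to drive *Acan* and *Hapln1* in cartilage. *Sox9* was at 452, 392 and 465 TPM in embryos and 589, 901 and 656 TPM in adults (log2 difference 0.69, limma adjusted p = 0.01). With no filter on low values its adjusted p by limma was 0.0699. *Sox5* was at 125, 146 and 125 TPM and then at 209, 226 and 175 TPM (log2 difference 0.62, limma adjusted p = 0.00773). *Sox6* went from 53.2, 51.5 and 42.1 TPM to 28.9, 26.8 and 20.4 TPM (log2 difference -0.93, limma adjusted p = 0.00687). The ranges of the stages did not overlap for any of the 3. As for *Acan*, adult replicate 2 had the highest *Sox9* of all 6 samples and adult replicate 1 the lowest of its stage. *Sox5* was also highest in adult replicate 2, but adult replicate 3 was the lowest of its stage. For *Sox6*, adult replicate 1 was the highest of its stage and adult replicate 3 the lowest. A link between the levels of these factors and *Acan* was not tested.

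**Figure D3:**
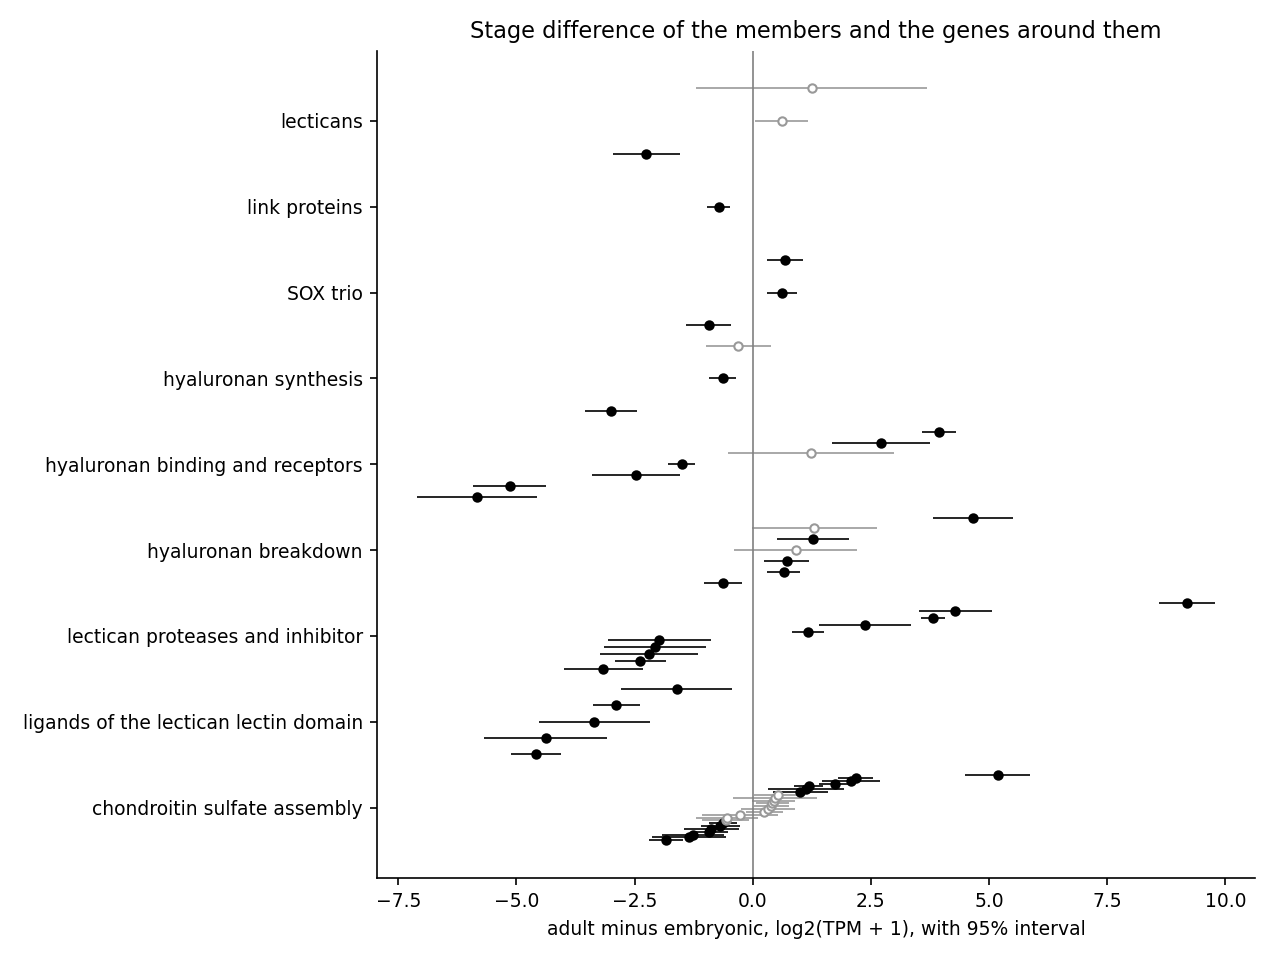
Adult minus embryonic difference in log2(TPM + 1) with its 95% interval on the horizontal axis for each tested gene, by list on the vertical axis. Filled points passed an adjusted p under 0.05. All 5 tested genes of the list of lectin domain ligands lie left of 0. The protease list runs from -3.16 for *Adamts9* to 9.19 for *Mmp3*.

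For *Acan*, *Vcan*, *Hapln1* and *Hapln3*, and not for the other 4 genes, the nearest profiles over the 6 samples were found by the root mean square difference of log2(TPM + 1) after centring each gene on its mean. For *Acan* they were *Prkd1* (0.0520), *Adcy7* (0.0758) and *Atg13* (0.0918), each with its highest value in adult replicate 2. For *Vcan* they were *Arhgef26* (0.0630), *Fgd5* (0.122) and *Tspan9* (0.165), each lowest in adult replicate 1. For *Hapln1* they were *Trim35* (0.0527), *Actg1* (0.0553) and *Raly* (0.0600). For the low *Hapln3* they were *Wdr76* (0.102), *Cyfip2* (0.135) and *Arfip2* (0.135). Being the nearest of 13125 genes over 6 samples, these profiles are a description.

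**Figure D4:**
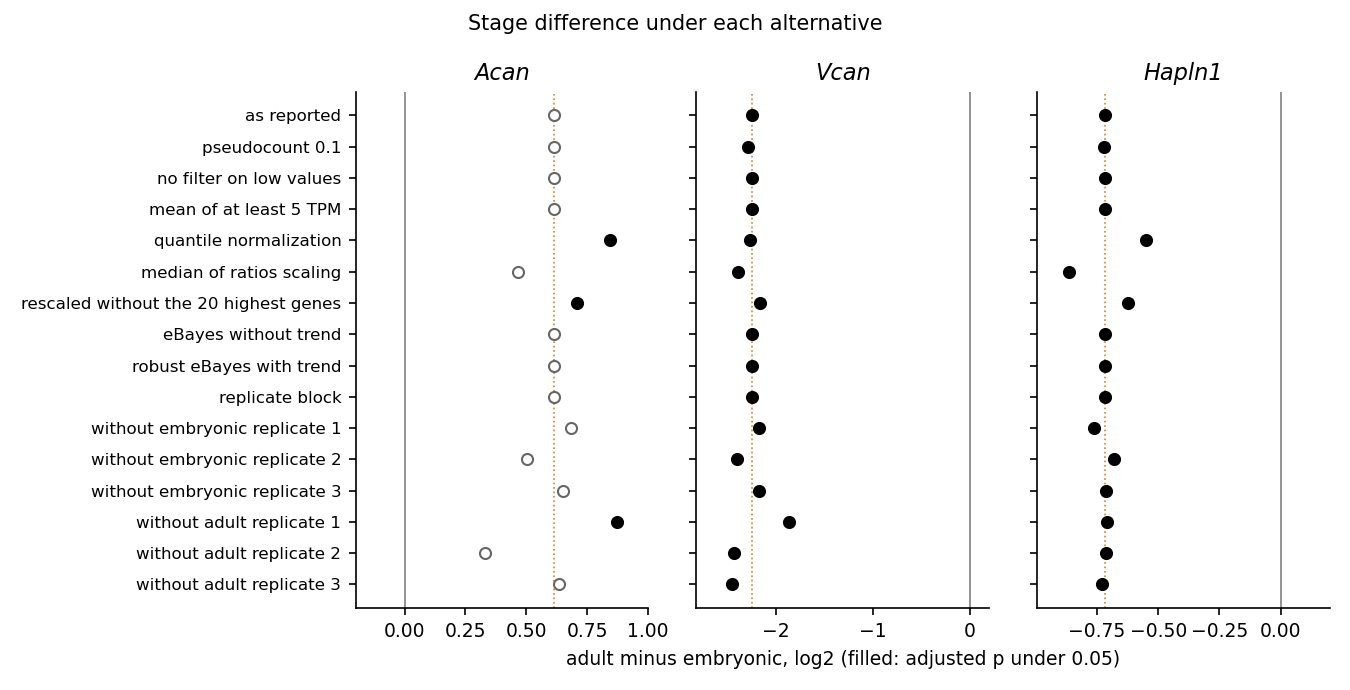
Adult minus embryonic log2 difference of *Acan*, *Vcan* and *Hapln1* on the horizontal axes, which differ in scale, under each alternative way of processing listed on the vertical axis, with a dotted line at the value as reported. *Acan* passed the threshold (filled) in 3 of 15 alternatives and ran from 0.33 to 0.87, while *Vcan* (-2.45 to -1.86) and *Hapln1* (-0.86 to -0.55) passed in all of them.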

How the data were processed

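Single-end reads of 50 bases were mapped by the authors to mouse GRCm38, per the methods with RefSeq annotations although the table carries Ensembl identifiers, and quantified with RSEM (build and tool also in the submitters’ processing notes), and the deposited values are log2 of TPM + 1 for each gene. The labels name a Kapa mRNA-Seq kit and the methods Nugen Ovation cDNA with a Kapa LTP kit. The version of RSEM is not given in the sources used here. The linear values add up to 1000000 TPM in each sample, so depth is not in them and no counting interval was given. Symbols and positions came from GENCODE M21 (21902 of 22032 identifiers matched) and start windows from RefSeq (GRCm38.p6).

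The 2 stages were fitted by limma 3.58.1 in R 4.3.3 (eBayes with trend) on these values, whose pseudocount is 1, keeping genes whose mean reached 1 TPM, with Benjamini-Hochberg adjustment over all of them. EBSeq, named in the methods, needs counts and was not used. Ratios within samples were compared by exact two-sided permutation tests. The genes named are the 8 members, up to 3 called genes in each direction of each list, markers, the 3 nearest profiles, and *Has2*, *Cd44*, *Adamts4*, *Adamts5* and the SOX genes. *Adamts8*, *Adamts15*, *Has1*, *Tnn* and *Bpnt2* were named after seeing their values, as were the ratios to *Col2a1* and those of *Has2* and *Cd44* to *Acan*. Some genes of the lists are counted but not reported here by name. The members and lists were chosen with earlier results of these data known. As alternatives, the pseudocount (0.1), the filter (none, or 5 TPM), the scaling (3 others), the eBayes settings, a replicate block and the threshold (0.01) were changed, and every sample was omitted in turn. Python 3.11.15 with pandas 2.3.3 was used.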

Additional observations from a re-analysis of the deposited data

How the results depend on the processing

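Across the alternatives *Vcan* and *Hapln1* kept their fall and their call, and the count of called members stayed between 2 and 3, the added gene being *Acan* or, with no filter on low values, *Ncan*. An adjusted p under 0.01 left 3718 of the 5949 genes called over the whole table. With each sample left out in turn, that count lay between 4604 and 5617, the called genes of the surrounding lists between 40 and 45, and the *Acan* share differed by 8.84 to 9.86 percentage points. In the same fits the *Hapln1* share differed by -0.20 to -0.04 points, the nearest to 0 without adult replicate 3, the log2 ratio of link protein to lectican by -1.44 to -0.91, and that of *Hapln1* to *Acan* by -1.58 to -1.05. Of the surrounding genes, 10 lost their call in some alternative and 7 not called gained one, and *Xylt2*, not called, ranged from -0.47 over all alternatives (-0.45 with a sample left out) to 0.016, the change of sign being without embryonic replicate 3. The median over all tested genes, 0.16, became 0.03 under median of ratios scaling and 0.25 when the 20 highest genes left the scaling. The 3140 higher and 2809 lower calls over all genes became 2613 and 3238 under median of ratios scaling, 2805 and 2819 under quantile normalization, and 3498 and 2518 without the 20 highest genes. Over all tested genes, samples of equal number did not vary together (correlations of their deviations -0.00884, -0.0169 and -0.0223). A pairing that acts on few genes would not show in these correlations and is not excluded. With the replicate number as a block the members called stayed 2 and the surrounding genes were 44, and the shares and ratios had an exact sign-flip p of 0.25 to 0.5, where 0.25 is the smallest possible. TPM holds no depth, so the counting error of values under 1 TPM is unknown.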
